A study of Mus musculus with 52 samples.

Results

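The genes described are Parvb, Parva and Parvg, which encode beta-, alpha- and gamma-parvin, together with Ilk, which encodes integrin-linked kinase, and Lims1, which encodes PINCH1. They were taken by symbol, 5 genes of the 47729 identifiers in the count table. All 5 were among the 17899 genes that passed a filter on low counts. Parvb was chosen by its measured level in these libraries, which was highest in young mice given the isotype antibody. Its differences from those libraries are therefore given as a description with no p-value, and the other 4 genes were taken as its relatives and protein partners. Comparisons without those libraries carry p-values for Parvb, but it was chosen with earlier results of these data known.

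The mouse mammary carcinoma line 4T1, a model of triple-negative breast cancer, was injected orthotopically (100000 cells, 4th mammary fat pad on the left) into Balb/C mice, and 52 of the resulting tumours were sequenced. Antibody was injected intraperitoneally at 200 µg on day 7, day 10 and day 13, in all 3 times. In mice older than 12 months there were 8 tumours under anti-PD-L1 (clone 10F.9G2), 8 under anti-CTLA4 (clone 9D9) and 7 under the isotype control (clone LTF-2). In mice labelled 8 to 10 weeks, with a protocol that allowed 12 weeks, there were 10 tumours under anti-PD-L1, 12 under anti-CTLA4 and 7 under isotype. All tumours came from 1 cell line in 1 strain, no group was free of antibody, and the labels give no sex.

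Parvins are adaptor proteins of focal adhesions, the sites where integrins tie the extracellular matrix to the actin cytoskeleton. ILK, which is now regarded as a pseudokinase, sits at the centre of a complex in which its ankyrin repeats bind a PINCH protein, its kinase-like domain binds a parvin, and the complex joins the tails of beta integrin subunits. A complex holds 1 parvin at a time, so the 3 parvins compete for ILK. Alpha-parvin is widespread, beta-parvin is known mainly from muscle and heart, and gamma-parvin is largely a protein of blood cells.

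The parvin genes Parvb and Parvg lie next to each other on the same strand. In GENCODE vM21 (GRCm38), Parvb (ENSMUSG00000022438) spans chr15:84232043-84315688 and Parvg (ENSMUSG00000022439) spans chr15:84324026-84342978, both on the plus strand, with 8337 bases between them. On the other side Samm50, a gene of the mitochondrial outer membrane import machinery, ends 14775 bases before Parvb. Parva (ENSMUSG00000030770) lies at chr7:112427505-112591692, Ilk (ENSMUSG00000030890) at chr7:105736592-105742925 and Lims1 (ENSMUSG00000019920) at chr10:58323466-58424691, all on the plus strand. The 250 bases before the RefSeq starts of Parvb and Parvg (GRCm38.p6, plus strand) are shown because these neighbours had different patterns over the tumours. Capitals mark GC boxes (GGGCGG) and CCAAT boxes (CCAAT), searched on both strands.
Parvb, chr15:84231793-84232042: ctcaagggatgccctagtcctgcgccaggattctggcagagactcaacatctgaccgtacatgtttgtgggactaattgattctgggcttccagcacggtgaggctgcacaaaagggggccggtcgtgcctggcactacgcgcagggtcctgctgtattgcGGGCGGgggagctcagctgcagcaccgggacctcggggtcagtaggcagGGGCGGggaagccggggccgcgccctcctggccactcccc
Parvg, first start, chr15:84324470-84324719: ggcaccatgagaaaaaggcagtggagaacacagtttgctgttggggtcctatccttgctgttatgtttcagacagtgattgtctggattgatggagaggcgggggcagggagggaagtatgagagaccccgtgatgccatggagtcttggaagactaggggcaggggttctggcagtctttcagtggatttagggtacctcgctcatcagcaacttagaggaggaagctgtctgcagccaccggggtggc
Parvg, second start, chr15:84325869-84326118: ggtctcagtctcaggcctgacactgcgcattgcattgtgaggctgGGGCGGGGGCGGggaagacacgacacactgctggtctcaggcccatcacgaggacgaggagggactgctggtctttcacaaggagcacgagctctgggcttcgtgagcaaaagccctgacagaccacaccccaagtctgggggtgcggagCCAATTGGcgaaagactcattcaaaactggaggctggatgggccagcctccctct

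The Parvb window is 65.2% G and C and holds 2 GC boxes, which start 89 and 40 bases before the start site. The window at the first Parvg start is 54.4% G and C and holds neither motif. The window at the second Parvg start, at 60.8% G and C, holds 2 adjacent GC boxes and a CCAAT box on each strand, overlapping each other. Of 32851 windows of the same length in the RefSeq table, 32.7% hold a GC box and 33.8% a CCAAT box. Neither GAGGAAGT, a site of the PU.1 type (2.44% of windows), nor GGAATG (12.6%), nor TATAAA (12.4%) was found in these 3 windows on either strand.

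Libraries held 9549847 to 53778370 counts, with a median of 20665734. Over the 52 libraries the members had 263 to 1979 counts for Parvb, 237 to 5630 for Parva, 95 to 2097 for Parvg, 1643 to 7850 for Ilk and 530 to 6191 for Lims1. Normalized counts (CPM, scaled to library size) below use TMM factors, which ran from 0.618 to 1.21. The factor was under 0.8 in 4 libraries: replicate 3 of aged isotype, replicate 8 of young anti-CTLA4, and replicates 1 and 6 of young isotype. The epithelial markers of a mammary carcinoma were present in every library, with Krt8 at 222 to 1552 CPM and Epcam at 47.0 to 278 CPM. The labels number 3 sequencing batches, which are unevenly spread over the groups. All young isotype libraries were in batch 2 and all aged anti-PD-L1 libraries in batch 1.

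Per length, Ilk was the most abundant of the genes, with a median of 95.8 TPM over all libraries (49.5 to 133). Lims1 had a median of 23.0 TPM and Parva of 20.1 TPM, while Parvb had 7.61 TPM and Parvg 5.84 TPM. Lims2, which encodes PINCH2, the second partner of the PINCH site, had a median of 1.17 TPM. Lims1 thus made up 83.5 to 98.4% of the summed Lims1 and Lims2 TPM of a tumour. Rsu1, which encodes a protein that binds PINCH1, had a median of 48.3 TPM. Ilk was at 1.72 to 4.92 times the summed parvin TPM in every tumour.

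By its medians Parvb was lowest in the 3 aged groups, higher in young mice given anti-PD-L1 or anti-CTLA4 and highest in young mice given isotype. Its lowest, median and highest values were 16.6, 19.4 and 25.5 CPM in aged anti-PD-L1 tumours, 12.3, 16.5 and 22.7 CPM in aged anti-CTLA4 tumours and 13.9, 18.0 and 22.7 CPM in aged isotype tumours. In young mice they were 22.5, 32.5 and 43.6 CPM under anti-PD-L1, 18.8, 31.8 and 54.3 CPM under anti-CTLA4 and 61.3, 67.6 and 190.0 CPM under isotype. In CPM all 7 young isotype libraries were above every one of the other 45 libraries, while in TPM they overlapped those of young anti-PD-L1. The level in young isotype chose the gene, and how many of all genes are so separated was not computed. Replicates 6 and 5 of that group were well above the other 5, which lay between 61.3 and 68.0 CPM. Replicate 6 is among the libraries of low TMM factor, which raises its CPM. In TPM, read without TMM factors, it was below replicates 5 and 7, and the group ran from 11.1 to 26.8 TPM. The 3 aged groups overlapped one another throughout, as did the anti-PD-L1 and anti-CTLA4 groups of young mice.

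**Figure D1:**
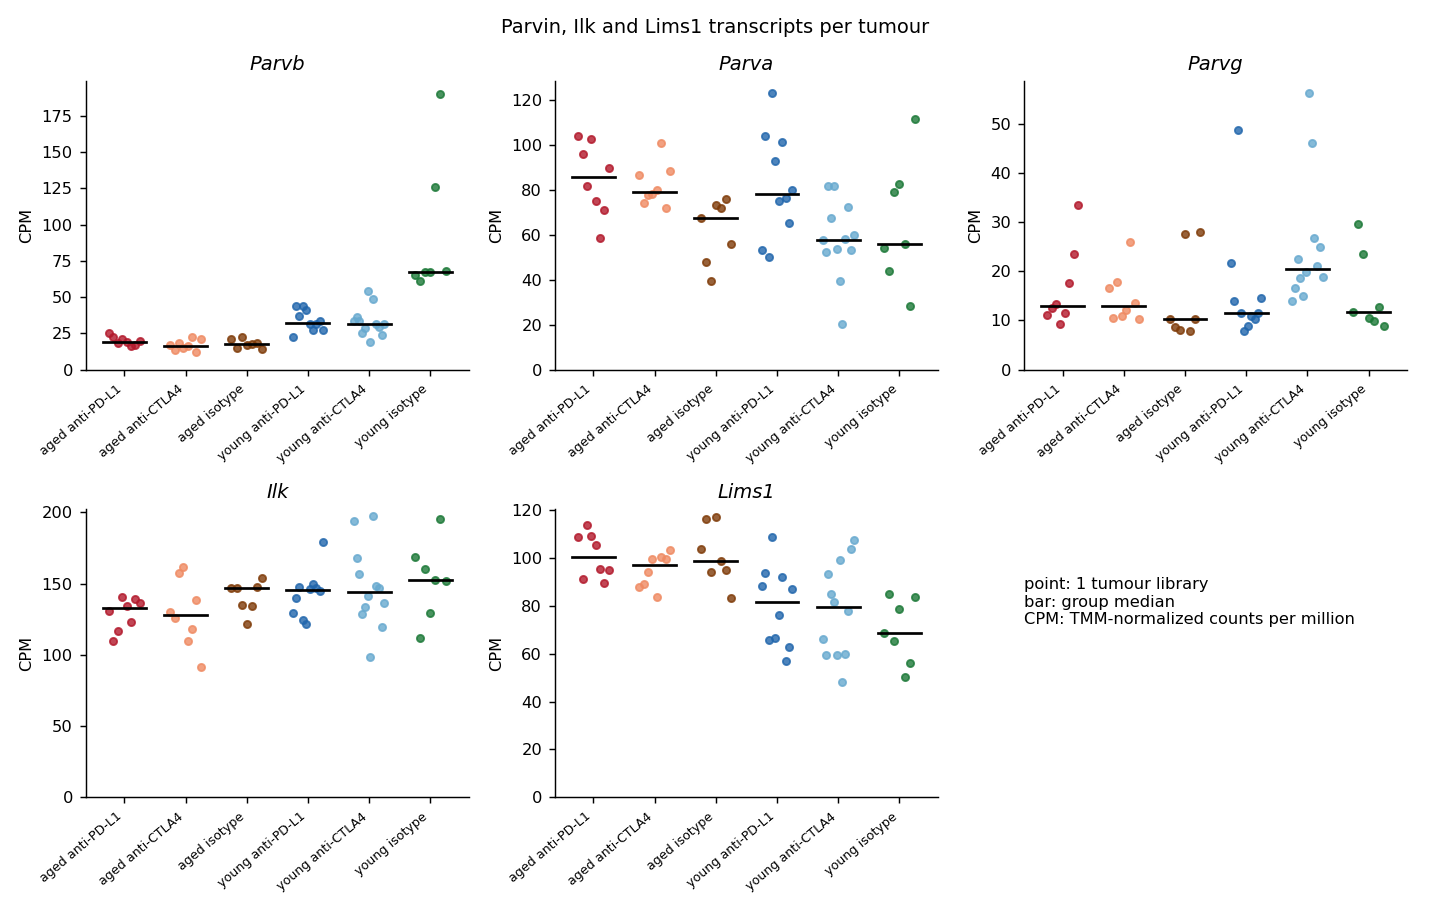
TMM-normalized counts (CPM) of Parvb, Parva, Parvg, Ilk and Lims1 in each tumour (points) with the group median (bars), in the 6 groups of age and antibody. Parvb in young isotype tumours lies at 61.3 to 190.0 CPM, above all other tumours, while for the other 4 genes no group lies apart from all the others.

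Against isotype in young mice, Parvb was lower by 1.42 ± 0.19 on the log2 scale (SE; a fold change of 0.375) under anti-PD-L1, and by 1.32 ± 0.26 (fold 0.401) under anti-CTLA4. Both comparisons share the 7 isotype libraries whose level chose the gene, so the values are a description. In CPM the groups did not overlap, with 10 of 10 anti-PD-L1 libraries and 12 of 12 anti-CTLA4 libraries below the lowest isotype library. The share of all genes without overlap was not computed. In TPM, 7 of 10 anti-PD-L1 and 12 of 12 anti-CTLA4 libraries were below it. The share of all genes tested that passed was 1.59% for anti-PD-L1 and 0.0726% for anti-CTLA4. Within batch 2 the difference was -1.39 for anti-PD-L1 and -1.42 for anti-CTLA4. Without the 4 libraries of low TMM factor it was -1.17 and -1.09, and on log2(TPM + 0.1) values it was -0.88 and -0.93.

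The other members did not pass in either comparison. Parva differed by 0.36 ± 0.21 in young mice under anti-PD-L1 relative to isotype (95% interval -0.05 to 0.77, edgeR adjusted p = 0.270) and by 0.07 ± 0.27 under anti-CTLA4 (-0.47 to 0.62, adjusted p = 0.986). Ilk, with the narrowest intervals, differed by -0.06 ± 0.10 (-0.26 to 0.14) and by 0.12 ± 0.13 (-0.14 to 0.37). Lims1 differed by 0.17 ± 0.12 (-0.07 to 0.41) and 0.09 ± 0.15 (-0.22 to 0.40). Parvg was the least precise, at 0.01 ± 0.34 (-0.68 to 0.69) and 0.23 ± 0.44 (-0.65 to 1.12). All 4 intervals for Ilk and Lims1 lie within a log2 change of 0.5 either way, but those for Parvg still hold changes of 0.6 and more.

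In aged mice no member passed under either antibody, and neither did any of the 17899 genes tested by edgeR (0% in both comparisons). At an unadjusted p under 0.05 there were 5379 genes for anti-PD-L1 and 5321 for anti-CTLA4, which share their isotype libraries, and DESeq2 passed 2378 and 1912 genes, none of them a member. Parvb differed by 0.05 ± 0.22 (95% interval -0.40 to 0.50, adjusted p = 0.901) under anti-PD-L1 and by -0.16 ± 0.21 (-0.58 to 0.27, adjusted p = 0.639) under anti-CTLA4. These values for Parvb also depended on the scaling. In TPM, 8 of 8 anti-PD-L1 and 5 of 8 anti-CTLA4 libraries were above the aged isotype median. Over the 11 other ways of processing the difference ran from 0.02 to 0.51 and from -0.18 to 0.33, and it passed in none. In CPM, Ilk was below the aged isotype median in 8 of 8 anti-PD-L1 and 6 of 8 anti-CTLA4 tumours, with log2 differences of -0.27 ± 0.12 (adjusted p = 0.122) and -0.25 ± 0.11 (adjusted p = 0.143). In TPM, read without TMM factors, it was above that median in 5 of 8 tumours under each antibody. The differences on log2(TPM + 0.1) values were 0.19 and 0.24. Counts and TPM of a gene differ here only by a scale of each library, so the direction for Ilk depended on how libraries were scaled. Parva had log2 differences of 0.44 ± 0.24 (adjusted p = 0.197) and 0.40 ± 0.23 (adjusted p = 0.221), and Lims1 of 0.22 ± 0.14 (adjusted p = 0.281) and 0.08 ± 0.13 (adjusted p = 0.722). With the length trend described below as a covariate Parva was at -0.15 under both antibodies. For Parva, Parvg, Ilk and Lims1 the difference between ages in the effect of an antibody had an adjusted p of 0.634 or more, where 0% of genes passed for either antibody, with 655 and 1257 genes at an unadjusted p under 0.05 and 31 and 18 by DESeq2.

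The largest set of differences was between ages under anti-CTLA4, where Parvb and Parvg were lower and Parva and Lims1 higher in aged mice. These 4 of 5 members passed, in a comparison in which 30.6% of all genes tested passed (2644 higher and 2841 lower in aged mice). Parvb, with the CPM values given above, had a log2 fold change of -0.96 ± 0.19 (fold 0.515, edgeR adjusted p = 0.000205). Because Parvb was chosen with earlier results of these data known, this p-value is not that of a gene named beforehand. In CPM all 8 aged libraries were below the young median and 6 of 8 were below every young library. In TPM, 6 of 8 were below the young median and 2 above it. In the 7 aged and 4 young libraries of batch 1 the groups did not overlap, at 12.3 to 22.7 CPM in aged and 28.6 to 54.3 CPM in young tumours, and the log2 fold change was -1.30 (adjusted p = 0.00293). In that batch 3596 genes passed, and how many of all genes had no overlap was not computed. In batch 3 the 1 aged library, at 21.3 CPM, lay within the 18.8 to 31.8 CPM of the 5 young libraries. Of the 11 other ways of processing, Parvb missed the threshold under 1, log2(TPM + 1) values, with -0.49 and an adjusted p of 0.0561.

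Lims1 had 83.7, 96.8 and 103 CPM (lowest, median and highest) in aged anti-CTLA4 tumours and 48.3, 79.7 and 108 CPM in young anti-CTLA4 tumours. The aged values were all above the young median, and the groups overlapped at the top. Its log2 fold change was 0.43 ± 0.13 (adjusted p = 0.00797), but it did not pass with the length trend described below as a covariate (0.26, adjusted p = 0.0656) or without a batch term (0.27, adjusted p = 0.0864).

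Parva had 72.0, 78.9 and 101 CPM in aged anti-CTLA4 tumours and 20.4, 57.7 and 81.7 CPM in young anti-CTLA4 tumours. All 8 aged libraries were above the young median and 3 were above every young library. The log2 fold change was 0.56 ± 0.21 (adjusted p = 0.0405). With the length trend as a covariate it was 0.10 (adjusted p = 0.553), and without young anti-CTLA4 replicate 8, the lowest Parva library, it was 0.43 (adjusted p = 0.117).

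Parvg had 10.3, 12.9 and 26.0 CPM in aged anti-CTLA4 tumours and 13.9, 20.5 and 56.3 CPM in young anti-CTLA4 tumours. Of the aged libraries 7 of 8 were below the young median and 5 below every young library. The log2 fold change was -0.96 ± 0.37 (adjusted p = 0.0419). The level of 8 leukocyte markers moved with it: their mean log2 CPM had a median of 6.50 in aged (6.12 to 7.26) and 7.12 in young anti-CTLA4 tumours (6.19 to 8.48). In bulk tumours fewer cells of a type and less RNA per cell cannot be told apart. Parvg kept its call in 4 of the 11 other ways of processing, with adjusted p up to 0.319, and lost it in 10 of 20 fits without 1 library. Without the libraries of low TMM factor its difference was -0.68 (adjusted p = 0.213), and without young anti-CTLA4 replicate 8 it was -0.74 (adjusted p = 0.191).

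Ilk had 91.6, 128 and 161 CPM in aged anti-CTLA4 tumours and 98.2, 144 and 197 CPM in young anti-CTLA4 tumours. The groups overlapped almost throughout, and the log2 difference of -0.23 ± 0.11 did not pass (95% interval -0.45 to -0.02, adjusted p = 0.0910).

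The same comparison of ages under the other antibodies gave no member that passed. Under isotype, where 8.41% of genes passed, Parvb in aged tumours was lower by 2.12 ± 0.31 (fold 0.230; no test, since it is the contrast with the group that chose the gene). Lims1 under isotype had 83.4, 98.6 and 117 CPM in aged and 50.2, 68.6 and 84.7 CPM in young tumours, with 6 of 7 aged libraries above every young one and a log2 difference of 0.45 ± 0.19 (adjusted p = 0.121). All aged isotype libraries were in batches 1 and 3 and all young ones in batch 2, so this contrast rests on batch differences estimated from other groups. Under anti-PD-L1, where 5.04% of genes passed, the log2 difference of aged against young was -0.65 ± 0.29 for Parvb (adjusted p = 0.186) and 0.50 ± 0.19 for Lims1 (adjusted p = 0.105). Those groups shared no batch either. Without a batch term Lims1 passed under isotype (0.54, adjusted p = 0.00621) and Parvb passed under anti-PD-L1 (-0.76, adjusted p = 0.00395). Between the antibodies, anti-CTLA4 minus anti-PD-L1, no member passed in young or in aged mice (0% of genes in both, with 1242 and 243 at an unadjusted p under 0.05 and 13 and 18 by DESeq2), and Parvb differed by 0.10 ± 0.22 in young (95% interval -0.35 to 0.55) and -0.21 ± 0.19 in aged mice (-0.59 to 0.18).

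**Figure D2:**
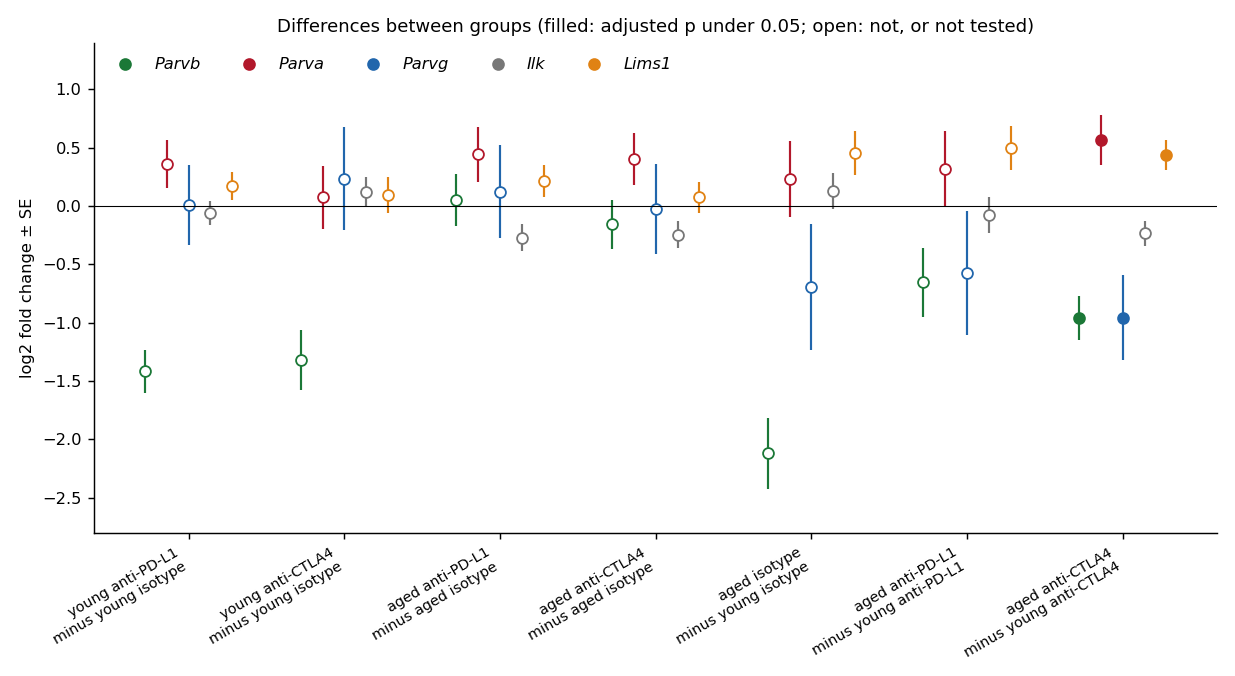
Log2 fold change with its standard error for the 5 members in 7 comparisons of group against group. Filled points passed at an adjusted p under 0.05, which occurred for Parvb, Parva, Parvg and Lims1 in aged against young mice under anti-CTLA4; open points did not pass or, for Parvb against young isotype, were not tested.

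As a share of the parvin transcripts of a tumour, Parva had the highest median in 5 of the 6 groups, and Parvb in young isotype tumours. Parva made up a median of 66.7% of the summed parvin TPM in aged anti-PD-L1, 68.4% in aged anti-CTLA4 and 62.2% in aged isotype tumours. In young tumours it made up 60.7% under anti-PD-L1, 47.1% under anti-CTLA4 and 38.4% under isotype. Parvb made up a median of 16.5, 14.3 and 18.4% in the aged groups in the same order, and 25.6, 24.3 and 41.9% in the young groups. In young isotype tumours its share ran from 36.5 to 80.5%, and the highest share was in replicate 6, where Parva made up 11.5%. The Parvg share was highest under anti-CTLA4 in young mice, at a median of 23.7% (17.1 to 59.6%). The summed parvin TPM differed less between groups, with medians of 26.6 in aged isotype to 41.04 in young isotype tumours. These shares were not tested, since Parvb was chosen for its level in 1 of the groups.

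**Figure D3:**
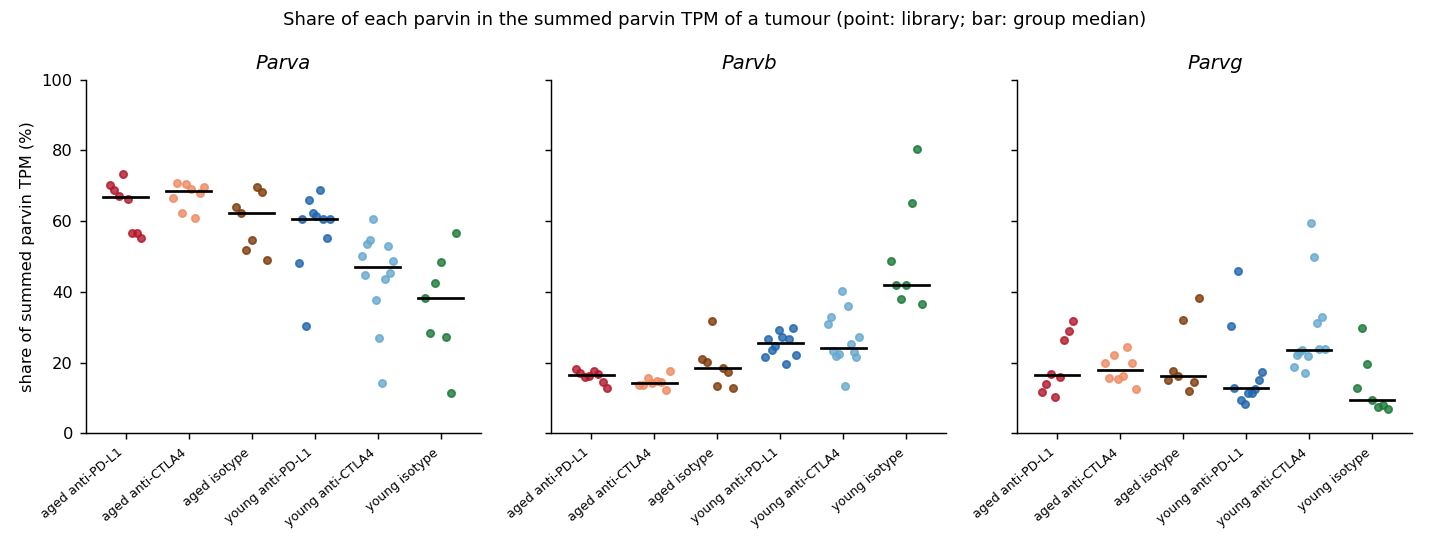
Share of Parva, Parvb and Parvg in the summed parvin TPM of each tumour (points, in percent) with the group median (bars). The median Parvb share is 41.9% in young isotype tumours and 14.3 to 25.6% in the other groups.

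Parvg moved with leukocyte markers over the libraries, and Parva, Lims1 and Ilk with a trend in gene length. Correlations were computed for the 5 members with 3 measures, 15 in all, over 52 libraries on log2 CPM. The measures were the leukocyte level, the fibroblast level (mean log2 CPM of 6 markers) and a length trend, which is how steeply the log2 CPM values in 1 library, each less its gene's mean, changed with log2 gene length. Parvg rose and fell with the leukocyte level, with Pearson r = 0.89 and Spearman rho = 0.82 (permutation p = 1e-05 for both, the smallest the permutations can give; adjusted p = 3.75e-05 and 7.5e-05). It was 0.95, 0.76 and 0.97 within batches 1, 2 and 3, and 0.86 without the 2 libraries farthest from the median leukocyte level. Itgb2 is on the leukocyte list and, as a leukocyte integrin, also on an integrin list below.

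Parva followed the length trend, with r = 0.84 and rho = 0.79 (permutation p = 1e-05 for both; adjusted p = 3.75e-05 and 7.5e-05), and r was 0.94, 0.92 and 0.64 within batches 1, 2 and 3 and 0.76 without the 2 farthest libraries. Lims1 had r = 0.60 and rho = 0.52 with the same trend (permutation p = 1e-05 and 0.00013; adjusted p = 3.75e-05 and 0.00039), with 0.76, 0.61 and 0.025 within the batches and 0.49 without the 2 farthest. Ilk ran the other way, with r = -0.63 and rho = -0.57 (permutation p = 1e-05 and 2e-05; adjusted p = 3.75e-05 and 0.0001), with -0.72, -0.58 and -0.67 within the batches and -0.52 without the 2 farthest. Effective lengths were estimated from counts and TPM and scaled on 221 genes with a single annotated transcript. They were 3594 bases for Parva, 3908 for Lims1 and 1393 for Ilk. The trend was computed from the log2 CPM values of all genes tested, these members included. Long genes thus tend to rise with it and short genes to fall by its definition, which these p-values do not allow for. How many of all genes reach such an r was not computed. The trend had a median of 0.115 in aged and -0.00106 in young anti-CTLA4 tumours, and its part in the differences of Parva, Lims1 and Ilk was measured only by the covariate fit given above and in the closing values.

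Smaller correlations passed for 4 other pairs. Ilk ran against the fibroblast level, with r = -0.55 and rho = -0.53 (permutation p = 3e-05 and 7e-05; adjusted p = 9e-05 and 0.000262), at -0.44, -0.58 and -0.24 within the batches and -0.53 without the 2 farthest libraries. Parva rose with it, with r = 0.40 and rho = 0.31 (permutation p = 0.00368 and 0.0263; adjusted p = 0.00789 and 0.0493), at 0.56, 0.57 and 0.35 within the batches and 0.37 without the 2 farthest. Lims1 had r = 0.38 and rho = 0.38 with it (permutation p = 0.00536 and 0.00505; adjusted p = 0.01 and 0.0126), at 0.27, 0.18 and 0.25 within the batches and 0.29 without the 2 farthest. Parva with the leukocyte level had r = -0.32 and rho = -0.26 (permutation p = 0.0197 and 0.0594; adjusted p = 0.0295 and 0.0890), so its rho did not pass, with -0.51, -0.18 and -0.072 within the batches and -0.22 without the 2 farthest. Permutations ran over all libraries, so differences between groups enter these values. Within single groups r with the fibroblast level ran from -0.82 to 0.70 for Ilk, 0.16 to 0.56 for Parva and -0.53 to 0.65 for Lims1. Parva with the leukocyte level ran from -0.66 to 0.78, so only Parva with the fibroblast level kept its sign in every group.

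Parvb had r = -0.03 with the leukocyte level, -0.36 with the fibroblast level and -0.45 with the length trend, given with no p because its high libraries chose it. Within batches 1, 2 and 3 these were 0.42, -0.24 and 0.28 for the leukocyte level, -0.24, -0.24 and 0.56 for the fibroblast level and -0.40, -0.50 and 0.31 for the length trend, so none kept its sign in all 3 batches. Its effective length, estimated in the same way, was 3408 bases. The long transcript Parvb-201 has 3784 bases, while the other 3 annotated transcripts have 378 to 438 bases. Among members, Parvb ran against Lims1, at r = -0.66 over 52 libraries and -0.71, -0.39 and -0.60 within batches 1, 2 and 3. Parva and Rsu1 rose together, at r = 0.82 and 0.79, 0.82 and 0.83 within the batches. With its neighbours Parvb had r = -0.03 for Parvg (0.42, -0.08 and 0.09 within the batches) and -0.07 for Samm50 (-0.08, -0.09 and 0.26). These libraries share depth and length effects, so the values are descriptions.

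**Figure D4:**
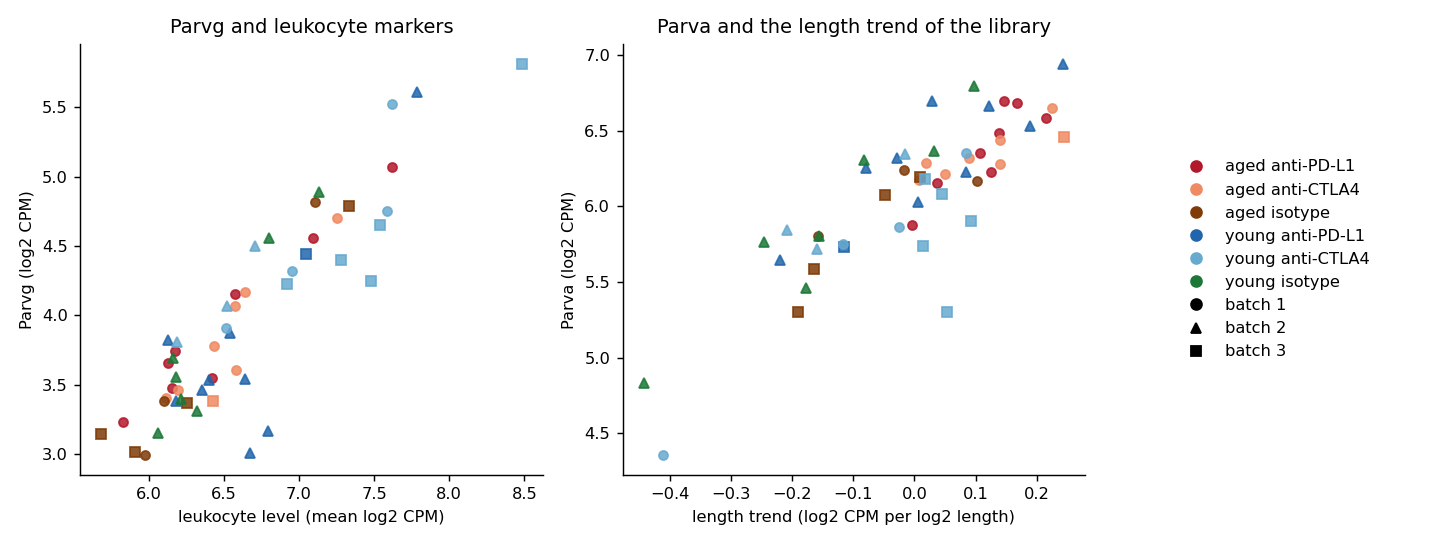
Left, Parvg (log2 CPM) against the leukocyte level (mean log2 CPM of 8 markers); right, Parva (log2 CPM) against the length trend of the library, with 1 point for each of 52 tumours, colours for groups and shapes for sequencing batches. Parvg rises with the leukocyte level (r = 0.89) and Parva with the length trend (r = 0.84).

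Likeness was ranked among 13028 genes with a symbol and a mean of at least 1 CPM, without predicted models (Gm or Rik) and numbered pseudogenes. Those most like Parvb over the 52 libraries were Map3k7cl (r = 0.91), Grik4 (0.89), which encodes a kainate receptor subunit, Sertm1 (0.88), Myo16 (0.88), which encodes an unconventional myosin, Nrcam (0.87), which encodes a neuronal cell adhesion molecule, and Fry (0.87). Map3k7cl had a median of 1.04 CPM in aged anti-PD-L1, 0.879 in aged anti-CTLA4, 1.76 in aged isotype, 2.84 in young anti-PD-L1, 2.21 in young anti-CTLA4 and 9.20 CPM in young isotype tumours. Unlike the CPM of the members, these were taken back from log2 CPM with its prior count of 2, which raises low values. All 7 young isotype libraries were above every other library for Map3k7cl, Grik4, Sertm1 and Myo16 as for Parvb, against 5 of 7 for Fry and 2 of 7 for Nrcam. These genes were picked by r with Parvb over libraries that include young isotype, so a shared peak there is favoured by the choice. The share of all genes with such a peak was not computed. Without the young isotype libraries r was 0.80 for Map3k7cl, 0.80 for Grik4, 0.79 for Sertm1, 0.78 for Myo16, 0.87 for Nrcam and 0.74 for Fry. In batch 3, which holds 11 libraries and none of young isotype, r was 0.80 for Nrcam but 0.11 for Map3k7cl, -0.24 for Grik4, -0.21 for Sertm1, -0.20 for Myo16 and 0.36 for Fry.

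**Figure D5:**
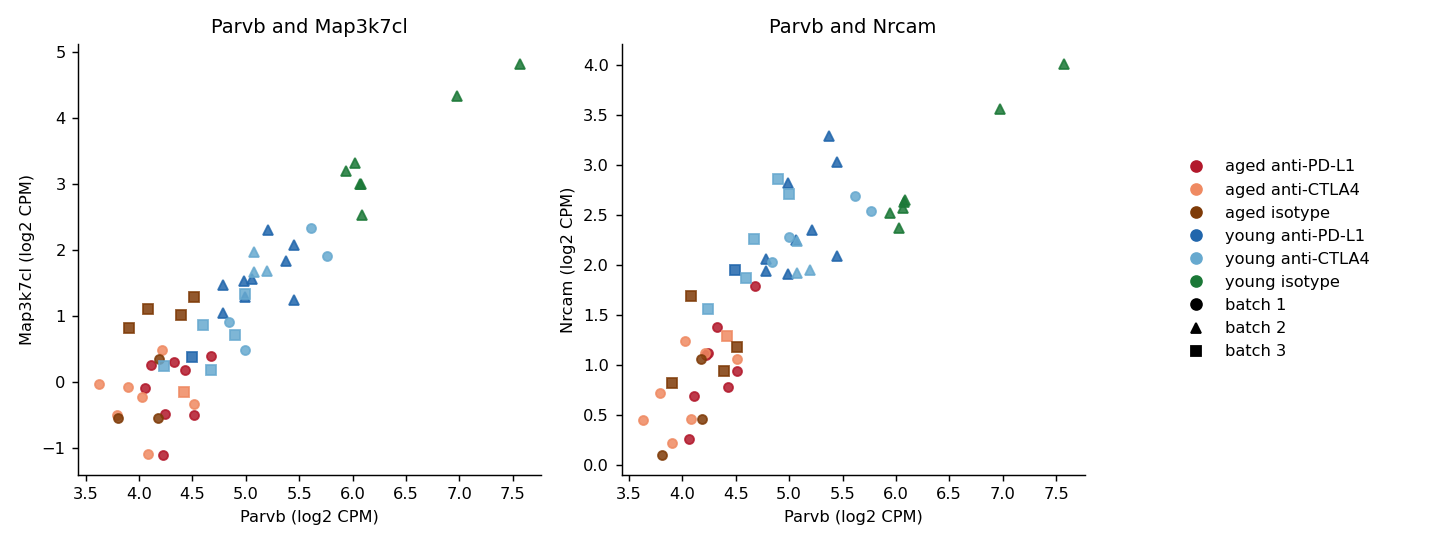
Map3k7cl (left) and Nrcam (right) against Parvb in each of 52 tumours, all as log2 CPM, with colours for groups and shapes for sequencing batches. Both rise with Parvb (r = 0.91 and 0.87); the 7 young isotype tumours are highest for Map3k7cl, and Nrcam follows Parvb within batch 3 as well (r = 0.80).

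The genes most like the other members differed from member to member. Parva was closest to Dusp4 (r = 0.94), a phosphatase of MAP kinases, Sept11 (0.93), a septin, and Cttnbp2nl (0.93). Parvg was closest to Sash3 (0.95), a lymphocyte adaptor, Ly9 (0.93), a receptor of the SLAM family, and Rac2 (0.92), the Rac GTPase of blood cells. Ilk was closest to Tsta3 (0.90), Gstp1 (0.89), a glutathione transferase, and Fkbp8 (0.86). Lims1 was closest to Ythdf3 (0.93), a reader of methylated adenosine in RNA, Zbtb33 (0.93) and Fcho2 (0.91).

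Of the wider integrin adhesion machinery, 71 listed genes were read in the same fit, all of them measured. Against isotype in young mice, anti-PD-L1 tumours had lower Itga10 (-1.17 ± 0.27, edgeR adjusted p = 0.0139) and higher Itga11 (2.29 ± 0.59, adjusted p = 0.0347), both alpha subunits of collagen-binding integrins. Itga10 passed in 7 and Itga11 in 3 of the 11 other ways of processing, and Itga11 lost its call in 7 of 17 fits without 1 library. Leaving aside Parvb, which was not tested against young isotype, no listed gene passed for anti-CTLA4 in young mice, and none passed for either antibody in aged mice.

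Between ages under anti-CTLA4, integrin genes moved in both directions. Of 17 alpha subunits 4 were higher and 3 lower in aged mice, of 8 beta subunits 2 were higher and 2 lower, of 5 talins and kindlins 3 were higher and 1 lower, and of 22 adaptors and kinases 3 were higher and 4 lower, where 14.8% of all genes were higher and 15.9% lower. The median log2 difference was -0.04 for alpha subunits, 0.19 for beta subunits, 0.71 for talins and kindlins and 0.18 for adaptors and kinases, against -0.06 for all genes tested. Lower in aged mice were, among others, the leukocyte integrin subunits Itgb2 (-0.91 ± 0.17, adjusted p = 7.41e-05), Itgax (-1.14 ± 0.26, adjusted p = 0.000914) and Itgb7 (-1.28 ± 0.48, adjusted p = 0.0380), as was the platelet subunit Itga2b (-1.27 ± 0.27, adjusted p = 0.000350). Kindlin-3 of blood cells, encoded by Fermt3, was lower as well (-0.60 ± 0.19, adjusted p = 0.0134), beside the lower leukocyte level given above, whose part in these values was not tested. Of the 11 other ways of processing Itgb7 passed in 4 and Fermt3 in 5, and Itgb7 lost its call in 9 of 20 fits without 1 library.

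Higher in aged mice under anti-CTLA4 were Itgb1 (0.78 ± 0.16, adjusted p = 0.000361), the beta subunit shared by most matrix receptors, and its alpha partners Itga6 (0.76 ± 0.15, adjusted p = 0.000154), Itga8 (1.48 ± 0.35, adjusted p = 0.00121) and Itga1 (0.79 ± 0.22, adjusted p = 0.00625). Itgb8 was higher too (1.27 ± 0.34, adjusted p = 0.00402). Kindlin-1 and kindlin-2, which activate integrins, were higher through Fermt1 (1.22 ± 0.28, adjusted p = 0.00102) and Fermt2 (0.71 ± 0.17, adjusted p = 0.00159), as was Tln2 for talin-2 (0.87 ± 0.31, adjusted p = 0.0263). Of the complex itself Rsu1 was higher (0.45 ± 0.13, adjusted p = 0.00679), and of its partners Nck2, an adaptor that binds PINCH1, was the only 1 of 12 to pass (0.52 ± 0.16, adjusted p = 0.0127). Of the 11 other ways of processing, Tln2 passed in 9, and Fermt1, Itga1, Rsu1 and Nck2 in 10 each. The other genes named as higher here passed in all 11. Tln2 lost its call in 2 and Itga1 in 1 of 20 fits without 1 library.

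Among the kinases of adhesion sites, Ptk2 for focal adhesion kinase was higher in aged mice under anti-CTLA4 (0.72 ± 0.17, adjusted p = 0.000965) and its relative Ptk2b lower (-1.08 ± 0.25, adjusted p = 0.000974). Src was lower (-0.76 ± 0.17, adjusted p = 0.000849), the adaptor Crk higher (0.52 ± 0.13, adjusted p = 0.00222) and Vasp, which binds actin filament ends, lower (-0.55 ± 0.09, adjusted p = 1.27e-05). Crk was higher in aged mice under isotype (0.61 ± 0.19, adjusted p = 0.0364) and anti-PD-L1 (0.63 ± 0.19, adjusted p = 0.0394) as well. Under isotype Src (-1.07 ± 0.28, adjusted p = 0.0125), Ptk2b (-1.32 ± 0.38, adjusted p = 0.0250) and Fyn (-1.19 ± 0.39, adjusted p = 0.0495) were lower in aged mice, and under anti-PD-L1 Vasp was lower (-0.41 ± 0.13, adjusted p = 0.0486). Fyn was lower in aged mice under anti-CTLA4 too (-0.94 ± 0.26, edgeR adjusted p = 0.00449). These calls between ages under isotype and anti-PD-L1 depended on the processing. Of 10 other ways under isotype, Src passed in 7, Crk in 6, Ptk2b in 4 and Fyn in 3, and under anti-PD-L1 Crk passed in 5 and Vasp in 2. Without 1 library, the calls under isotype were lost in 3 of 14 fits for Crk and for Ptk2b and in 10 for Fyn, and those under anti-PD-L1 in 6 of 18 fits for Crk and 12 for Vasp.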

How the data were processed

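RNA of 52 tumours was sequenced from a strand-marked poly(A) kit with paired 75-base reads, per the labels' protocols. Per the submitters' processing notes, Salmon, DESeq2 1.16.1 and mm10 were used; no source used here says how transcripts were summed to genes. Estimated counts, all whole numbers, and TPM are the 2 deposited units. Dividing one by the other gave the same effective gene length in every library, to within 0.00145 on the log2 scale in the 2644 genes checked. Gene symbols matched 47224 of 47729 identifiers.

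Rounded counts went into edgeR 4.0.16 (R 4.3.3): filterByExpr, TMM, 1 quasi-likelihood fit over all libraries with group and sequencing batch, and Benjamini-Hochberg adjustment over 17899 genes, with 0.05 as the threshold. All 11 comparisons of the design were fitted. Log2 CPM used a prior count of 2. SE is the log2 fold change over the root of F. Members and lists were chosen with earlier results of these data known. Genes named are the members, passing list genes (5 of smallest p per list and comparison), the 6 genes most like Parvb and the 3 most like each other member, and the neighbours of Parvb. Correlations used 100000 permutations, two-sided. Alternatives were DESeq2 1.42.0, limma 3.58.1 on log2(TPM + 0.1) and log2(TPM + 1), and those listed in the closing section. The TPM values were fitted as deposited, with no TMM factors. Fits without 1 library kept the dispersions of the fit over all libraries. The procedure was tested on simulated data. Of 209 pairs within groups none was a copy (smallest chi-square per degree of freedom 16.9). The labels do not say that replicates came from separate mice beyond a biological replicate number, and p-values therefore cover the spread among these samples only. Replicate numbers did not pair libraries.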

Additional observations from a re-analysis of the deposited data

Results flagged for a closer look

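Among the 25 combinations of a member and a group of 4 to 10 libraries, 2 had a library far from the others; chance gives about 1 in 20. Parvg was at 48.8 CPM in young anti-PD-L1 replicate 3, against 21.7 CPM in the next library of that group, and the leukocyte level of that library was 7.78, the highest of the group. Ilk was at 179 CPM in young anti-PD-L1 replicate 10, against 149 CPM in the next library.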

How the results depend on the processing

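Of the differences described, only those between aged and young mice under anti-CTLA4 made members pass, and how many did depended on the processing, while Parvb was lower in aged mice under each of the 11 alternatives. The count was 4 of 5, and it was 2 without the filter on low counts (Parvb and Lims1), 2 without a batch term (Parvb and Parva), 2 in batch 1 alone (Parvb and Lims1), 2 on log2(TPM + 1) values (Parva and Lims1) and 1 with the length trend as covariate (Parvb). Leaving out 1 library gave counts from 2 to 4, with Parvb and Lims1 passing each time. The count was 2 without aged anti-CTLA4 replicate 8 or young anti-CTLA4 replicate 7, 8 or 9. Without a batch term, alone or with only the groups compared, 1 member (Lims1) passed between ages under isotype in both fits, and 1 (Parvb) and 2 (Parvb and Lims1) passed under anti-PD-L1. Single-batch fits between ages under isotype or anti-PD-L1, or of the difference between ages in an antibody effect, were not possible for want of shared batches.

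Over all genes tested, the number passing moved more. In young mice, for anti-PD-L1 against isotype, it was 285, against 863 by DESeq2, 153 without a filter, 135 with the replicate block, 24 with the length trend, 18 without the libraries of low TMM factor, 138 in batch 2, 142 with only the groups compared and 70 and 150 on TPM with pseudocounts of 0.1 and 1. For anti-CTLA4 against isotype in young mice it was 13, against 51 by DESeq2, 1240 without a batch term, 47 on log2(TPM + 1) and 0 to 7 under the other settings below 13, and 20 with the length trend. For anti-PD-L1 and anti-CTLA4 in aged mice it was 0, against 2378 and 1912 by DESeq2, 83 and 6 without a batch term and 4 and 3 without a filter. For the difference between ages in these effects it was 0, against 18 and 10 without a batch term; for anti-PD-L1 it was also 9 on log2(TPM + 1) and 2 with the block. For anti-CTLA4 minus anti-PD-L1 in young mice it was 0, against 306 without a batch term. Between ages under isotype 1505 genes passed, against 3921 with the length trend, 3261 without a batch term, 2684 without the libraries of low TMM factor, 752 with the block and 940 and 966 on TPM. Under anti-PD-L1 it was 903, against 2952 with the length trend, 2192 without a batch term, 35 with the block, 426 without a filter, 1532 by DESeq2, 2094 without batch in the groups compared and 409 and 415 on TPM. Under anti-CTLA4 5485 genes passed, against 3596 in batch 1. The cause was not tested.

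Replicate numbers gave no pairing: over 113 same-numbered pairs the correlation of deviations ran from -0.543 to 0.527, 43 were over 0.1, and 4 of 52 libraries were closest to a library of their own number. With the replicate block 3 members passed between ages under anti-CTLA4, and Parva had 0.64 with an adjusted p of 0.0545.

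Signs changed for these differences, none of which had passed. Those on TPM came from values with no TMM factors, in which libraries are scaled otherwise than in the main fit. In young mice, for anti-PD-L1 against isotype, Parvg was -0.0035 with RLE size factors, -0.0017 with DESeq2, -0.090 with the block and -0.093 without the libraries of low TMM factor. Ilk was 0.064 without those libraries, 0.078 with the length trend, and 0.37 and 0.36 on TPM with pseudocounts of 0.1 and 1, and Parva was -0.022 with the length trend. For anti-CTLA4 against isotype in young mice, Parva was -0.16 without a batch term, -0.10 without the libraries of low TMM factor, -0.059 with the length trend, -0.035 with only the groups compared and -0.033 in batch 2, and Ilk was -0.053 without a batch term. In aged mice under anti-PD-L1, Lims1 was -0.0023 without a batch term and -0.00056 with the length trend, Parva was -0.15 with the length trend and Ilk was 0.19 and 0.18 on TPM. Under anti-CTLA4 in aged mice, Parvg was 0.037 without a batch term, 0.41 with the length trend and 0.61 and 0.51 on TPM; Lims1 was -0.096 and -0.13 in the same 2 fits and -0.014 with only the groups compared. Parvb there was 0.0011 with the length trend, 0.029 with only the groups compared and 0.33 and 0.28 on TPM, Parva was -0.15 with the length trend, and Ilk was 0.24 and 0.24 on TPM. Between ages under isotype without a batch term, Parva was -0.078 and -0.067 and Ilk -0.12 and -0.11, the second with only the groups compared. Under anti-PD-L1, Parvg was 0.049 and 0.045 in those fits, and Ilk was 0.021 without the libraries of low TMM factor, 0.026 with the length trend and 0.10 and 0.10 on TPM. Under anti-CTLA4, Ilk was 0.13 and 0.13 on TPM.

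Leaving out 1 library gave -0.42 to 0.27 for Parvg and -0.12 to 0.0035 for Ilk under anti-PD-L1 in young mice. It gave -0.063 to 0.25 for Parva and -0.053 to 0.19 for Lims1 under anti-CTLA4 in young mice, -0.049 to 0.11 for Parvb and -0.10 to 0.53 for Parvg under anti-PD-L1 in aged mice, -0.19 to 0.34 for Parvg under anti-CTLA4 in aged mice, and -0.099 to 0.044 for Ilk between ages under anti-PD-L1. Between ages under anti-CTLA4, Parva lost its call in 7 and Parvg in 10 of 20 such fits.

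Among the 12 tested correlations of the members other than Parvb, those that changed their side of the threshold or sign within batches were those of Parva with the leukocyte level (-0.18 in batch 2, -0.072 in batch 3), the fibroblast level (0.35 in batch 3) and the length trend (0.64 in batch 3). Parvg had 0.0065 in batch 1 and 0.12 in batch 3 with the fibroblast level, and -0.51 in batch 1 and 0.30 in batch 3 with the length trend. Ilk had 0.37 with the leukocyte level in batch 1, -0.44 and -0.24 with the fibroblast level in batches 1 and 3 and -0.67 with the length trend in batch 3. Lims1 had -0.64 and 0.078 with the leukocyte level in batches 1 and 2, 0.27, 0.18 and 0.25 with the fibroblast level in batches 1, 2 and 3 and 0.025 with the length trend in batch 3. The lowest count of a member in any library was 95, for Parvg; the part of depth, group size and batch in the intervals was not tested.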
